A study of Mus musculus with 6 samples.

Results

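The genes described here are 30 genes of cholesterol synthesis, its control, and cholesterol uptake, efflux and handling, taken by symbol from a table of 19928 genes in mouse adipose tissue. All 30 were found under their symbols. They comprise 18 synthesis enzymes, 5 regulators and 7 genes of uptake, efflux and intracellular handling. The groups were 3 adipose tissue samples of KM mice, an outbred laboratory stock, that received radix Angelica sinensis (RAS, a dried medicinal root) as a feed supplement, 10.00 g for each kg of body weight, and 3 adipose tissue samples of KM mice whose diet is labelled control. Poly(A) RNA of each sample was sequenced. The title of the series names mice on a high-fat diet, while the samples' own labels do not say whether either group received that diet. No source used here gives the fat depot, sex or age, or whether each sample came from a separate animal. The p-values therefore reflect only how these 6 samples vary, which may in part be technical.

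Cells make cholesterol from acetyl-CoA through the mevalonate pathway, squalene and a chain of sterol intermediates. When sterols in the endoplasmic reticulum run low, the escort protein SCAP carries the transcription factor SREBP2 (gene Srebf2) to the Golgi, where it is cut and released to switch on the genes of the pathway; INSIG proteins hold SCAP back when sterols are plentiful. When sterols are high, LXR nuclear receptors switch on efflux pumps such as ABCA1 and ABCG1. Adipocytes make little cholesterol compared with liver but store a large pool of free cholesterol in and around the lipid droplet.

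No gene of the 30 passed the test between RAS and control libraries. The SD of FPKM was larger among the control libraries than among the RAS libraries for 15 of the 18 synthesis enzymes, against 47.1% of all tested genes. Of the 18 enzymes, 14 had a lower mean of log2(FPKM + 1) with RAS, against 57% of all tested genes. However, 15 of the 18 were at their highest in a single library, control 1, against 30% of all tested genes. The values of Cyp51, Sqle, Sc5d and Ggps1 in the RAS libraries were all below those in the control libraries. So were those of the regulator Srebf2 and the sterol carrier Stard4, which makes 6 of the 30 genes, against 12.5% of all tested genes. For 1 of the 30, the enzyme Fdft1, the RAS values were all above the control values, against 5.42% of all tested genes. The efflux pumps Abca1 and Abcg1 and the lipoprotein receptor Scarb1 had overlapping values in the groups.

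Values are FPKM, read counts adjusted for transcript length and sequencing depth. The test was limma's moderated test on log2(FPKM + 1) over the 12606 genes with a mean of at least 1 FPKM, with Benjamini-Hochberg adjustment over all of them and a threshold of 0.05; log2 differences are RAS minus control on that scale, which understates changes of low genes. All 30 genes passed the minimum of 1 FPKM. In limma, 0 of the 30 had an adjusted p under 0.05, as did 0% of all tested genes, and 5 of the 30 had an unadjusted p under 0.05, all lower with RAS, against 10.3% of all tested genes in either direction, 6.41% on the lower side and 3.86% on the higher side. No other tool was run. The groups did not overlap in FPKM, with RAS lower, for 6 of the 30 genes, against 12.5% of all tested genes, and with RAS higher for 1, against 5.42% (17.9% in both directions). Depth was estimated from the authors' scaled counts, taking the commonest low value of a library as 1 read, since nearly all other low values were multiples of it; the estimate is not a record of the authors' read counts. By this estimate the libraries held 14379617 to 15748636 reads assigned to genes, and the least covered of the 30, Mvd in its lowest library, about 77.0 reads.

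The tissue carried the RNA of fat cells in every library. All 8 adipocyte markers (Adipoq, Plin1, Lep, Fabp4, Cidec, Pparg, Lipe and Retn) were at 1 FPKM or more in every library. Their summed level was 39279 to 56014 FPKM in RAS libraries and 28683 to 37074 FPKM in control libraries. Most of that sum was Fabp4, the fatty acid carrier of fat cells, at 30163 to 45586 FPKM with RAS and 20821 to 26447 FPKM in control. Lep, the hormone leptin, went the other way, at 293 to 334 FPKM with RAS and 424 to 615 FPKM in control. Cidec was at 2183 to 2588 FPKM with RAS and 1640 to 2023 FPKM in control. Lipe was at 591 to 664 FPKM with RAS and 545 to 583 FPKM in control. Like Fabp4, Cidec and Lipe were thus higher with RAS, without overlap of the groups. Adipoq, Plin1, Pparg and Retn overlapped between the groups. In bulk tissue, fewer cells of a type and less RNA per cell cannot be told apart. The part of these differences in the results below was not tested.

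The 4 promoters that follow belong to genes on which the results turn: Hmgcs1 and Insig1, which had the 2 highest means of the enzymes and regulators and stood at least 2.08 times higher in control 1 than in the mean of controls 2 and 3, and Cyp51 and Srebf2, whose RAS and control values did not overlap. Each run is the 250 bases before the RefSeq start of the gene in the GRCm38.p6 reference (strain C57BL/6J, not KM), written 5′ to 3′ on the gene's strand. Capitals mark CACNCCAC, letters of the sterol regulatory element that SREBP proteins bind, and CCAAT, the letters bound by NF-Y, a factor that works beside SREBP2; matches on either strand are marked. Hmgcs1 lies on the plus strand (chr13:119690101-119690350), Insig1 on the plus strand (chr5:28071162-28071411), Cyp51 on the minus strand (chr5:4104698-4104947) and Srebf2 on the plus strand (chr15:82147019-82147268).
Hmgcs1: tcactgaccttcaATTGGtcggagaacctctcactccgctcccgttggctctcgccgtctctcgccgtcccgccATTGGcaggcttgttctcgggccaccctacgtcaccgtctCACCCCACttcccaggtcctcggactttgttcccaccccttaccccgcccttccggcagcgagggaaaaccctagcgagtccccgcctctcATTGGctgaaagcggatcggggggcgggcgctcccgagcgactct
Insig1: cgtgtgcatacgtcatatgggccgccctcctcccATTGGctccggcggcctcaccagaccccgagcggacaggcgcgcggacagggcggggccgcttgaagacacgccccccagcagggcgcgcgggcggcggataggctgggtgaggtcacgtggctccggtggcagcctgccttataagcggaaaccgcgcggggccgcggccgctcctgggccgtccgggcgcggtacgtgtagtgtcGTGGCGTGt
Cyp51: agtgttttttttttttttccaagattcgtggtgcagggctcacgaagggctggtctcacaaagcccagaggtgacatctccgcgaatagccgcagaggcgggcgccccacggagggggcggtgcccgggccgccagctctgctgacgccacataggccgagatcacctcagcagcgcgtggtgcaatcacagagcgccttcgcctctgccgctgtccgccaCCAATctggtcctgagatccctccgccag
Srebf2: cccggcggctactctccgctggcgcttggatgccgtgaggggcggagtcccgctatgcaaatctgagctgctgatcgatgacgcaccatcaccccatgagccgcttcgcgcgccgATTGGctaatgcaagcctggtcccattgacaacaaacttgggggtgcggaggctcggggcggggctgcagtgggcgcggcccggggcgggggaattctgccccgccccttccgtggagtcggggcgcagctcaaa

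In Hmgcs1 the CACNCCAC letters began 136 bases before the start, with CCAAT letters at 237, 176 and 45 bases before it. In Insig1 the CACNCCAC letters began 9 bases and the CCAAT letters 216 bases before the start. The RefSeq start of Hmgcs1 lies upstream of the start that the table gives for its locus. Of the letters searched, the Cyp51 and Srebf2 windows held CCAAT only, 29 and 135 bases before the start. RefSeq promoters were matched for 23 of the 30 genes, and the search took in the whole RefSeq window, which runs a little past the start; the first listed was used where a gene has several. CACNCCAC was in 3 of the 23 (13.0%; Acat2, Hmgcs1 and Insig1) and in 6.12% of 27025 promoters of the same length. CCAAT was in 19 of the 23 (82.6%) and in 37.9% of all promoters. The motifs can share 1 end letter but did not overlap in the runs printed. A match of letters describes the sequence without showing a bound site. Only these exact letters were searched, so the lack of a match does not show that a sterol regulatory element is absent.

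Most enzymes that make mevalonate and isoprenoids had their highest value in control 1. Hmgcs1, the HMG-CoA synthase of the cytosol, was at 56.6, 54.5 and 39.4 FPKM in RAS libraries 1 to 3 and at 123, 36.7 and 81.8 FPKM in control libraries 1 to 3. The RAS libraries lay inside the control range. Its log2 difference was -0.53 ± 0.41 (SE; limma adjusted p = 0.684), -0.14 without control 1 and -1.01 without control 2. Acat2, the cytosolic thiolase that joins acetyl-CoA units before that step, was at 44.8, 36.2 and 42.5 FPKM with RAS and at 43.5, 27.4 and 24.9 FPKM in control, a log2 difference of 0.39 ± 0.22 (adjusted p = 0.580). Only control 1 reached the RAS level. Its neighbour and close copy Acat3 is counted apart, and how reads common to both were assigned is not known.

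Mvk, Pmvk and Mvd add phosphates to mevalonate and then release carbon dioxide to give isopentenyl diphosphate. Pmvk was at 34.2, 28.2 and 33.5 FPKM with RAS and at 62.5, 26.3 and 30.5 FPKM in control. Mvd was at 4.78, 4.29 and 3.78 FPKM with RAS and at 9.81, 5.64 and 4.69 FPKM in control, a log2 difference of -0.49 ± 0.23 (limma adjusted p = 0.524), and -0.22 without control 1. For both genes control 1 stood above all other libraries, 2.20 times the mean of controls 2 and 3 for Pmvk and 1.90 times for Mvd. Mvk averaged 13.1 ± 0.84 FPKM with RAS and 14.7 ± 3.12 FPKM in control (SD, n = 3 each).

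Idi1, the isomerase that makes the second isoprenoid unit, was at 11.6, 10.5 and 9.36 FPKM with RAS and at 21.9, 11.1 and 12.2 FPKM in control. RAS 1 exceeded control 2, so the groups overlapped, and the log2 difference was -0.43, or -0.14 without control 1. Fdps, which builds farnesyl diphosphate, was at 35.9, 22.1 and 24.0 FPKM with RAS and at 43.8, 19.6 and 24.1 FPKM in control (log2 -0.04 ± 0.31; limma adjusted p = 0.975). Ggps1 takes farnesyl diphosphate away from sterols toward the lipid anchors of small GTPases. It was at 7.69, 7.35 and 6.24 FPKM with RAS and at 8.06, 8.28 and 8.17 FPKM in control. Every RAS library lay below every control library, by a log2 difference of -0.18 ± 0.11 (adjusted p = 0.598) and of -0.11 without RAS 3. Control 1 was the lowest of the 3 controls for this gene.

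Of the squalene enzymes, Fdft1 had its RAS values above and Sqle its RAS values below those of control. Fdft1, the squalene synthase and the first enzyme committed to sterols, was at 20.1, 24.4 and 20.5 FPKM with RAS and at 19.8, 16.8 and 19.0 FPKM in control. Every RAS library was above every control library, with a log2 difference of 0.21 ± 0.12 (limma adjusted p = 0.598). Its locus in the table overlaps that of Ctsb, an abundant lysosomal protease gene, and reads were not stated to be assigned by strand, so its level is uncertain. Sqle, the squalene epoxidase (NCBI gene 20775; chromosome 15, 59315092 to 59331193), was at 3.12, 2.59 and 3.55 FPKM with RAS and at 7.84, 4.54 and 3.62 FPKM in control. RAS 3 and control 3 lay next to each other, and no RAS library reached the controls. The log2 difference was -0.58 ± 0.24 (95% CI -1.15 to -0.02; unadjusted p = 0.044, limma adjusted p = 0.468), and -0.32 without control 1. Lss, which folds the epoxide into lanosterol, averaged 6.71 ± 1.83 FPKM with RAS and 8.40 ± 2.48 FPKM in control (SD, n = 3 each), with overlapping values; its locus overlaps that of 4930483K19Rik in the table.

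Of the enzymes that turn lanosterol into cholesterol, Cyp51 had the lowest p of the 30 genes. Cyp51, the lanosterol demethylase (NCBI gene 13121; chromosome 5, 4080674 to 4104697), was at 4.30, 4.31 and 3.35 FPKM with RAS and at 10.6, 5.86 and 5.60 FPKM in control. All RAS libraries lay below all control libraries. The log2 difference was -0.70 ± 0.23 (95% CI -1.23 to -0.17; unadjusted p = 0.017, limma adjusted p = 0.390), and -0.44 ± 0.14 without control 1 (adjusted p = 0.347). Sc5d, the sterol desaturase late in the pathway (NCBI gene 235293; chromosome 9, 42254177 to 42264300), was at 19.3, 18.1 and 12.3 FPKM with RAS and at 41.0, 20.5 and 22.0 FPKM in control. Its groups did not overlap, although RAS 1 and control 2 were close. The log2 difference was -0.67 ± 0.28 (limma adjusted p = 0.486), and -0.36 without control 1. Leaving out control 1, the highest library for Cyp51, Sqle and Sc5d, thus made their differences smaller but left them negative.

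The other late enzymes overlapped between the groups. Tm7sf2, a sterol reductase, was at 8.23, 7.97 and 6.28 FPKM with RAS and at 9.95, 4.40 and 4.71 FPKM in control, so that control 1 lay above and controls 2 and 3 below all RAS libraries; the table's locus for it overlaps that of 1110014N23Rik. Nsdhl and Hsd17b7, which remove methyl groups together with other enzymes of the complex, averaged 20.8 ± 5.31 and 1.89 ± 0.56 FPKM with RAS, against 25.5 ± 11.5 and 2.65 ± 0.48 FPKM in control (SD, n = 3 each). Dhcr7, the reductase of the last step of one branch, was at 5.78, 7.14 and 3.94 FPKM with RAS and at 11.0, 5.25 and 5.94 FPKM in control. Ebp, the sterol isomerase, had a log2 difference of 0.003 ± 0.14 (95% CI -0.33 to 0.33; limma adjusted p = 0.995). By level per transcript length, Hmgcs1 (mean of all libraries 65.4 FPKM), Acat2 (36.5), Pmvk (35.9) and Fdps (28.2) led the enzymes and Hsd17b7 (2.27) was lowest; Acat2 and Pmvk, neighbours in that order, overlapped in their libraries.

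**Figure D1:**
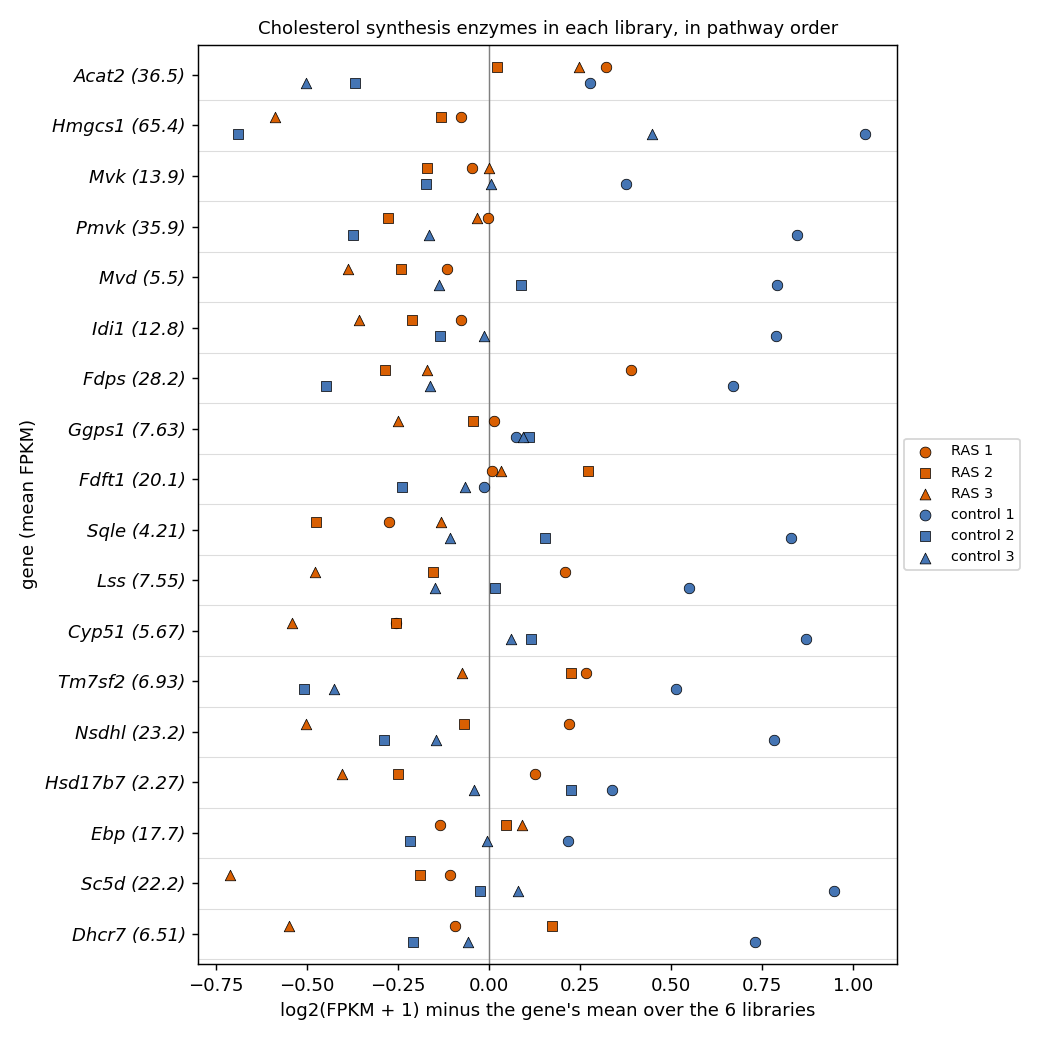
Each row is a synthesis enzyme in pathway order with its mean FPKM, and each point is a library, as log2(FPKM + 1) minus the gene's mean over the 6 libraries (orange RAS, blue control; circle, square and triangle for samples 1, 2 and 3). The blue circle, control 1, is the rightmost point for 15 of 18 enzymes.

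As a group the 18 enzymes had a median log2 difference of -0.26, with 14 lower and 4 higher, where the median of all tested genes was -0.04 and 57% of them had a difference below 0. Control 1 was the highest of the 6 libraries for 15 of 18 enzymes, against 30% of all tested genes. It exceeded 1.5 times the mean of controls 2 and 3 for 13 of 18, against 7.25%, and the median ratio over the enzymes was 1.89. RAS 3 was the lowest library for 9 of 18, against 25.7%. The list mean of log2 values, each relative to the gene's own mean, was 0.02, -0.11 and -0.27 in RAS libraries 1 to 3 and 0.59, -0.16 and -0.07 in control libraries 1 to 3. Controls 2 and 3 thus lay within the RAS range, and control 1 stood above all other libraries.

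Without control 1, 10 of the 18 enzymes were lower with RAS and the median was -0.05, beside 54.2% of all tested genes below 0. Without RAS 3 the median was -0.15, with 14 lower, beside 59.1% of all genes. Without both it was 0.04, with 8 of 18 lower, beside 55.4%. With control 1 left out, the RAS libraries lay below both remaining controls for 4 enzymes (17.5% of all tested genes) and above both for 3 (13.3%). The 3 on the higher side were Acat2 (log2 0.63 ± 0.14, limma adjusted p = 0.267), Tm7sf2 (0.61 ± 0.14) and Fdft1 (0.26 ± 0.14). No enzyme passed the test in that comparison, where the smallest adjusted p was 0.267.

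Control 1 also stood apart in markers of another tissue. All 7 skeletal muscle markers were highest in control 1. Their summed level was 22.7 to 61.0 FPKM in RAS libraries and 69.6 to 206 FPKM in control libraries. Most of that sum was Acta1, skeletal actin, at 21.2 to 59.6 FPKM with RAS and 66.8 to 180 FPKM in control. Each of the other muscle markers was under 1 FPKM in every RAS library and in controls 2 and 3. In control 1 they ranged up to 6.74 FPKM (Mylpf). Hepatocyte markers, of interest because liver makes much cholesterol, summed to 10.2 to 14.3 FPKM in RAS libraries and 9.94 to 176 FPKM in control libraries, with the high value in control 3 (Alb, albumin, at 88.4 FPKM) and a sum of 26.8 FPKM in control 1. The hepatocyte markers Apoa2, Fgb and Cyp7a1 were at 0 in every RAS library and in control 2, and Cyp7a1 also in control 1. Brown and beige fat markers summed to 139 to 968 FPKM in RAS libraries, highest in RAS 3, and to 53.5 to 314 FPKM in control libraries, highest in control 1. Mammary epithelium markers found in the table summed to 4.52 to 10.8 FPKM with RAS and 1.28 to 11.8 FPKM in control, lowest in control 1. B cell markers summed to 7.83 to 12.2 FPKM with RAS and 7.07 to 14.2 FPKM in control. No marker of these lists was at 0 in all libraries. Their part in the enzyme values was not tested.

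**Figure D2:**
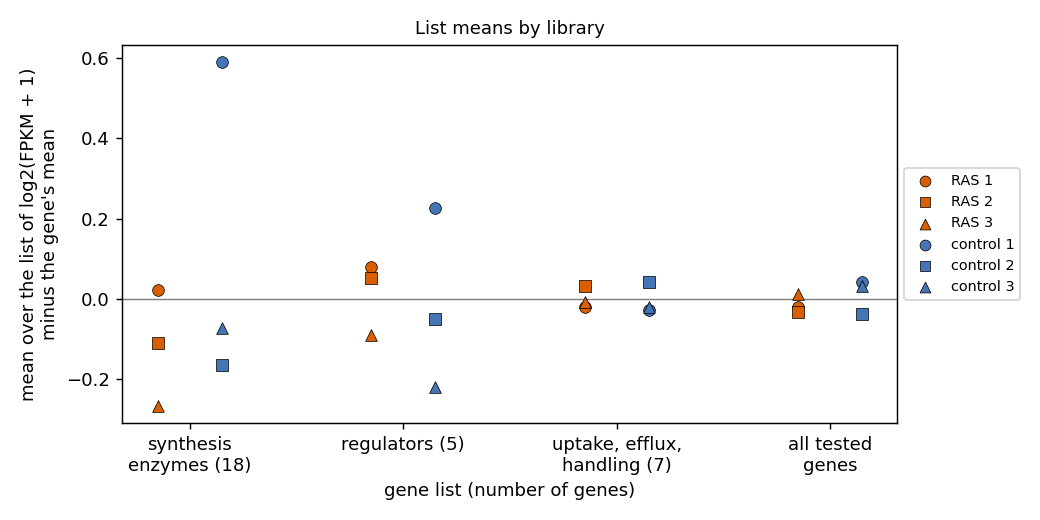
Each point is 1 library (orange RAS on the left, blue control on the right of each list), as the mean over a list of log2(FPKM + 1) minus the gene's mean. Control 1 lies at 0.59 for the synthesis enzymes, while the 7 uptake, efflux and handling genes span -0.03 to 0.04 over the libraries.

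Of the 5 regulators, 3 had a higher and 2 a lower mean with RAS (median log2 difference 0.14), beside 57% of all tested genes lower. Srebf2, the gene of the pathway's activator (NCBI gene 20788; chromosome 15, 82147269 to 82204960), was at 10.1, 8.36 and 7.50 FPKM with RAS and at 12.5, 10.9 and 10.5 FPKM in control. The groups did not overlap, and RAS 1 lay close to control 3. The log2 difference was -0.36 ± 0.13 (95% CI -0.67 to -0.05; unadjusted p = 0.030, limma adjusted p = 0.432), and -0.29 without control 1. Scap, its sterol-sensing escort, averaged 13.3 ± 0.94 FPKM with RAS and 14.2 ± 0.49 FPKM in control (SD, n = 3 each; log2 -0.09 ± 0.10).

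Insig1, the retention protein that SREBP2 itself switches on, was at 73.5, 89.3 and 59.8 FPKM with RAS and at 123, 46.7 and 37.4 FPKM in control. Control 1 was 2.94 times the mean of controls 2 and 3, and every RAS library lay between control 1 and the others. The log2 difference was 0.28 ± 0.42 (limma adjusted p = 0.842), and 0.79 ± 0.20 without control 1 (adjusted p = 0.299). Insig2, its relative, was at 28.1, 24.5 and 30.1 FPKM with RAS and at 26.2, 23.6 and 24.7 FPKM in control, with overlap. Mylip, the ubiquitin ligase that LXR switches on to mark lipoprotein receptors for breakdown, averaged 21.8 ± 1.80 FPKM with RAS and 19.9 ± 4.68 FPKM in control (SD, n = 3 each; log2 0.15 ± 0.17).

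The 7 genes of uptake, efflux and handling had a median log2 difference of 0.01, with 4 higher and 3 lower, beside 57% of all tested genes lower. Abca1, the pump that loads cholesterol onto lipid-poor apolipoprotein, was at 38.7, 43.9 and 31.3 FPKM with RAS and at 35.2, 44.6 and 33.5 FPKM in control. Its log2 difference was 0.01 ± 0.17 (95% CI -0.39 to 0.41; limma adjusted p = 0.992). Abcg1, which passes cholesterol to mature HDL, was at 8.24, 8.01 and 12.0 FPKM with RAS and at 8.34, 9.37 and 8.92 FPKM in control. RAS 3 was the high library, and RAS 1 and 2 lay below all controls; the log2 difference was 0.06 (95% CI -0.31 to 0.43) and -0.11 without RAS 3. Scarb1, the HDL receptor that exchanges cholesterol in both directions, was at 97.9, 75.7 and 74.7 FPKM with RAS and at 94.2, 94.6 and 74.4 FPKM in control (log2 -0.09, 95% CI -0.48 to 0.31).

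Npc1 and Npc2 hand cholesterol out of the lysosome. Npc2, with the highest level of the 30 genes, was at 138, 159 and 181 FPKM with RAS and at 122, 98.1 and 140 FPKM in control. The groups overlapped, since RAS 1 was just below control 3. Its log2 difference was 0.41 ± 0.18 (95% CI -0.02 to 0.84; limma adjusted p = 0.498), and 0.31 without RAS 3. Npc1, the membrane partner, averaged 10.5 ± 0.62 FPKM with RAS and 10.1 ± 0.83 FPKM in control (SD, n = 3 each), a log2 difference of 0.06 ± 0.11; its locus overlaps that of 3110002H16Rik in the table.

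Stard4, a soluble sterol carrier that SREBP2 switches on, was at 2.53, 2.61 and 2.33 FPKM with RAS and at 3.87, 3.11 and 2.96 FPKM in control. Every RAS library lay below every control library, with a log2 difference of -0.30 ± 0.13 (unadjusted p = 0.047, limma adjusted p = 0.476) and of -0.21 without control 1. Soat1, which esterifies cholesterol for storage, was at 2.74, 4.07 and 3.07 FPKM with RAS and at 2.79, 3.96 and 4.23 FPKM in control, with overlap. Macrophages, which use this machinery heavily, left 9 markers in the data at 1 FPKM or more in every library, with a summed level of 466 to 605 FPKM in RAS libraries and 372 to 600 FPKM in control libraries.

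**Figure D3:**
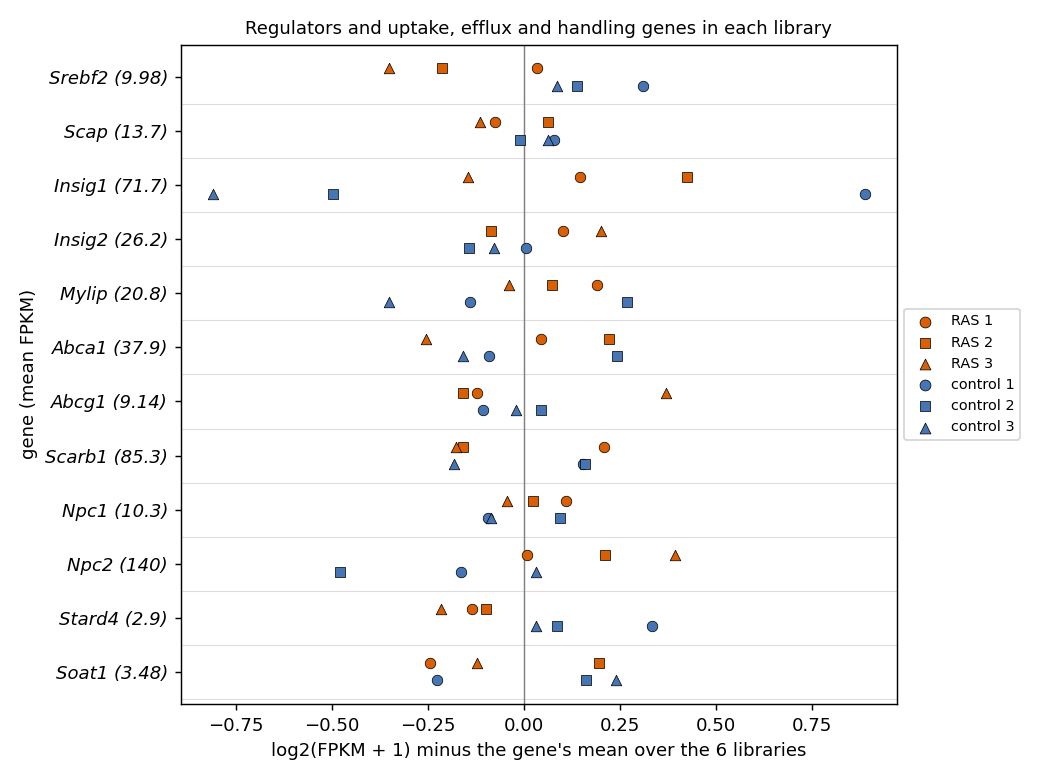
Regulators (upper 5 rows) and uptake, efflux and handling genes (lower 7 rows), drawn per library as log2(FPKM + 1) minus the gene's mean, with RAS in orange above control in blue. Insig1 spreads most widely, with control 1 at the right and controls 3 and 2 at the left, while the RAS and control points of Srebf2 and Stard4 do not overlap.

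**Figure D4:**
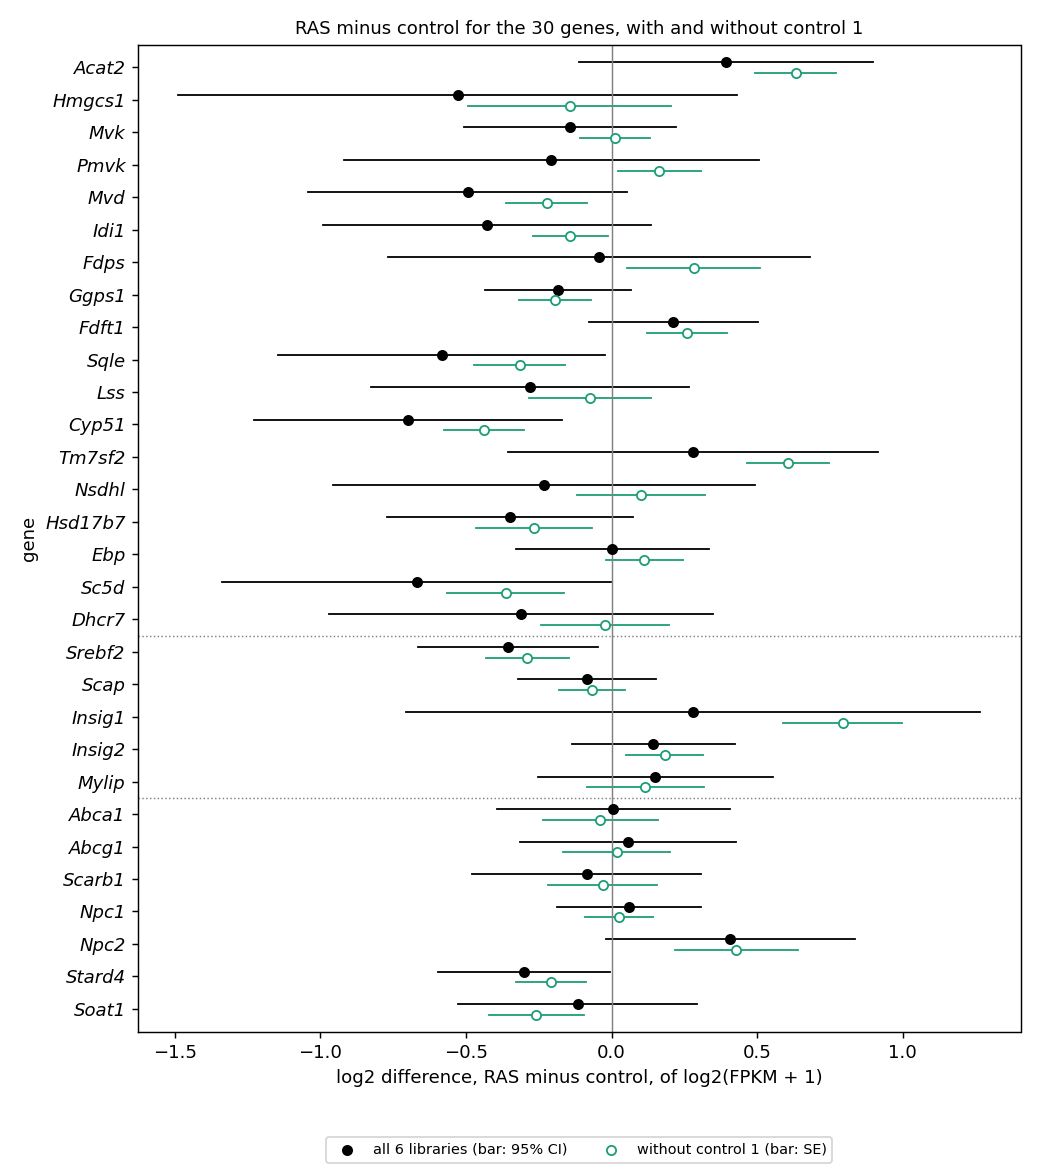
Black points are log2 differences, RAS minus control, over all 6 libraries with 95% confidence intervals; green open points leave out control 1, with the SE. For Cyp51, Sqle and Sc5d the difference stays below 0 and is smaller without control 1, and for Insig1 it is 0.28 with and 0.79 without control 1.

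Other genes of the same pathways were counted from lists of 55 genes in the table, 47 of them tested. None passed the limma test over all genes in either direction (adjusted p 0.350 or more), and 3 of the 47 had an unadjusted p under 0.05, all higher with RAS, against 10.3% of all tested genes in either direction and 3.86% on the higher side. The groups did not overlap, with RAS lower, for 5 of the 47, against 12.5% of all tested genes. With RAS higher this held for 2 of the 47, against 5.42%. Among 8 other synthesis genes, 6 were lower and 2 higher, where 57% of all tested genes had a difference below 0. Control 1 was the highest library for 6 of 8, against 30% of all tested genes. Msmo1, the methyl oxidase listed as Sc4mol, was at 10.3, 8.51 and 9.12 FPKM with RAS and at 15.9, 12.7 and 9.41 FPKM in control (log2 -0.38, and -0.22 without control 1). Erg28, a scaffold of the sterol demethylating enzymes listed as 0610007P14Rik, had a log2 difference of -0.29. Acss2 and Acly, which make cytosolic acetyl-CoA and were picked out here after their values were seen, showed the same high library: Acss2 was at 111, 58.2 and 38.2 FPKM with RAS and at 166, 35.3 and 38.3 FPKM in control, and Acly at 155, 78.5 and 80.0 FPKM with RAS and at 331, 80.6 and 89.1 FPKM in control.

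Of 11 further genes around SREBP processing, 8 were lower and 3 higher, beside 57% of all tested genes lower. Srebf1, the relative of Srebf2 that favours fatty acid synthesis, was at 85.9, 95.4 and 59.7 FPKM with RAS and at 142, 81.0 and 78.1 FPKM in control, again highest in control 1 (log2 -0.29 ± 0.28, and -0.013 without control 1). Erlin2 (log2 -0.27), which helps to remove sterol-regulated proteins from the endoplasmic reticulum, and Faf2 (-0.21), a factor of that same removal, lay lower in every RAS library; Erlin2 differed by -0.18 without RAS 3 and Faf2 by -0.13 without control 1. Mbtps1, the first protease to cut SREBPs, differed by -0.15 and Pgrmc1, a haem-binding partner of sterol enzymes, by 0.18, and without RAS 3 these were -0.085 and 0.068.

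Of 7 other uptake genes, 4 were lower and 3 higher, beside 57% of all tested genes lower. The scavenger receptor Cd36 differed by 0.29 and the large endocytic receptor Lrp1 by -0.32, which was -0.11 without RAS 3 and -0.19 without control 2. Of 9 other efflux genes, 7 were higher and 2 lower, with a median log2 difference of 0.07, beside 57% of all tested genes lower. Without control 1, 4 of the 9 were lower, beside 54.2% of all tested genes. Cyp27a1, which makes an oxysterol that activates LXR, was at 21.0, 22.3 and 24.8 FPKM with RAS and at 13.5, 19.3 and 18.6 FPKM in control, with no overlap (log2 0.40 ± 0.16; adjusted p = 0.453), and the difference was 0.25 without control 1. Apoe, an apolipoprotein that carries cholesterol out of cells, was at 2056, 2577 and 4183 FPKM with RAS and at 2167, 2680 and 3355 FPKM in control, with overlap. Its log2 difference was 0.06 ± 0.33 (limma adjusted p = 0.963), and -0.23 without RAS 3 and -0.09 without control 1. The LXR genes Nr1h3 and Nr1h2 differed by 0.22 and -0.08, the transporter gene Abca5 by 0.14 and Lcat, the plasma esterifying enzyme, by -0.29.

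Of 12 other storage and transport genes, 7 were higher and 5 lower, beside 57% of all tested genes lower. Lipa, the lysosomal lipase that frees cholesterol from its esters, had the smallest p among these pathway genes: it was at 35.5, 53.6 and 48.5 FPKM with RAS and at 32.0, 28.7 and 29.0 FPKM in control. Every RAS library was above every control library, by a log2 difference of 0.58 ± 0.17 (unadjusted p = 0.010, limma adjusted p = 0.350), and 0.63 without control 1. The lipid scramblase Tmem41b (-0.22) and the sterol carrier Osbp (-0.19) lay lower in every RAS library, and these were -0.13 for Tmem41b without control 1 and -0.097 for Osbp without RAS 3. Tmem97, which binds NPC1, differed by -0.18, and by -0.027 without control 1.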

How the data were processed

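The authors deposited 1 table with FPKM per gene and library. The submitters' processing notes name TopHat2 (2.0.9) together with Cufflinks (2.1.1), without saying what each did. No source used here gives the genome build or annotation. The table also holds a count signal that the authors deposited after scaling; 99.3 to 99.4% of its values above 0 and under 1000 were whole multiples, within 0.02, of 1 value per library, from which the number of reads assigned was estimated. It was not treated as raw counts, so edgeR and DESeq2, planned as alternatives, were not run. Columns named for the group that the treatment protocol calls RAS-fed were taken as RAS and the other numbered set of 3 as control, by elimination. A further 4 columns of group values were not used. Loci overlapped the GRCm38 gene (GENCODE M21) of the same Ensembl identifier for 99.67% of 18403 genes, and starts, counted from 0 in the table, are printed from 1.

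Members, lists and tests were chosen with earlier results of these data known. The members are all named; of each wider list, up to 4 tested genes with the smallest p are named, plus a few set genes, among them Srebf1, Nr1h3, Nr1h2 and Apoe; some genes that this rule names are not reported here. On simulated data (12606 genes, 200 changed per run, 5 runs), limma found 62.8% of the genes changed by 1 log2 unit and 92.0% of those changed by 2, beside 7.60 false calls a run. Smaller changes were not simulated, and noise was drawn for each gene apart. The log2 differences of the 30 genes ran from -0.70 to 0.41, so these rates do not tell how often changes of that size would be found. Software was limma 3.58.1 (R 4.3.3), pandas 2.3.3 and numpy 2.4.6 (Python 3.11.15); plots were drawn in matplotlib 3.10.9.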

Additional observations from a re-analysis of the deposited data

How the results depend on the processing

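In the alternatives run (16, or 15 for genes under the minimum of 5 FPKM), none of the 30 genes and none of the other pathway genes named had a limma adjusted p under 0.05 (lowest 0.141, Tm7sf2); Acss2 and Acly were not among the genes run. Over the whole table, 0 genes were called with all libraries (1294 at an unadjusted p under 0.05), 0 to 2 with 1 library left out, 3 without control 1 and RAS 3, and 0 in each other alternative. The planned tests with edgeR and DESeq2 were not run, since the table holds scaled counts. No label says that replicate numbers pair samples: deviations of same-numbered samples correlated at 0.178, 0.0960 and 0.219, each sample's highest correlation. With the replicate number as a block, 0 genes were called, 1663 had an unadjusted p under 0.05 and the enzyme median was -0.26.

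With 1 library left out, the median log2 difference was -0.39 to -0.049 for the enzymes, -0.054 to 0.14 for the regulators and -0.031 to 0.093 for the uptake, efflux and handling genes. With sample weights the enzyme median was -0.065 (12 lower, 6 higher), and without control 1 and RAS 3 it was 0.043. For the uptake, efflux and handling genes it was also 0.057 at a minimum of 5 FPKM, 0.049 with median-ratio size factors and 0.082 with scaled counts, an alternative chosen after seeing the data. Signs changed without control 1 and RAS 3 for Abcg1 (-0.15), Apoe (-0.38), Dhcr7 (0.17), Fdps (0.36), Hmgcs1 (0.017), Lss (0.094), Nsdhl (0.29), Pmvk (0.13), Scarb1 (0.036) and Srebf1 (0.18). They changed with sample weights for Abcg1 (-0.069), Apoe (-0.25), Fdps (0.20), Nsdhl (0.084) and Scarb1 (0.031), with median-ratio size factors for Fdps (0.0010), and with quantile normalization for Abca1 (-0.0058) and Apoe (-1.5e-05). With 1 library left out, ranges that crossed 0 were -0.10 to 0.13 for Abca1, -0.11 to 0.15 for Abcg1, -0.23 to 0.29 for Apoe, -0.11 to 0.11 for Ebp, -0.28 to 0.28 for Fdps, -0.054 to 0.79 for Insig1, -0.26 to 0.011 for Mvk, -0.43 to 0.10 for Nsdhl and -0.45 to 0.16 for Pmvk. The cause was not tested.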
